A study of Homo sapiens with 24 samples.

Results

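The genes described are 10 immediate early genes of the EGR, IER and KLF families and MYC, namely EGR1, EGR2, EGR3, IER2, IER3, IER5, KLF4, KLF6, KLF10 and MYC. They were taken by name from a gene-level table of 34595 rows, in which each had 1 row of that name. The choice was made with earlier results of these data known. The study asked, per its title and design text, what blocking the kinases IRAK1 and IRAK4 does in pancreatic cancer cells. RNA of 2 established human lines from such cancers, Panc1 and Capan1, was hybridised to 24 single-colour Illumina bead arrays, with 2 arrays in each of 12 groups. Each line had 6 groups. The inhibitor cells were incubated for 24 h with 10 uM of a compound against IRAK1 and IRAK4. The shIRAK1, shIRAK4 and shIRAK1+4 cells carried retroviral hairpins against 1 or both kinases, the scramble cells carried hairpins of a scrambled sequence, and the DMSO cells received the vehicle for 24 h. All hairpin and scramble cells were infected in sequence with a pSuperRetroPuro virus (puromycin at 1 ug/mL for 48 h) and a pSuperRetroNeoGFP virus (geneticin at 500 ug/mL for 4 days). The second virus carried scramble in scramble, shIRAK1 and shIRAK4 cells and shIRAK4 in shIRAK1+4 cells. All cells grew in RPMI with 10% serum, so every group, DMSO included, was serum-fed when harvested. The series' design text speaks of hairpins for PANC-1 alone, but hairpin arrays of both lines were present and both were used. No label states that paired arrays of a group stem from separate cultures, so the spread behind every p-value is that between these samples and may be technical.

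Immediate early genes are transcribed within minutes of a growth factor, cytokine or stress signal, without new protein synthesis, and most of their transcripts are short-lived. The EGR genes, and others of this class, are switched on when MAP kinases phosphorylate ternary complex factors bound with serum response factor (SRF) at CArG boxes in their promoters. IRAK4 and IRAK1 act below the receptors of interleukin-1 and of Toll-like ligands, and pass their signal on to MAP kinases and NF-kB, which control several of these genes.

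The promoter of EGR1 is shown because EGR1 had the largest differences of the 10 genes, and those of EGR2 and SRF because they also hold CArG boxes. RefSeq promoter entries (GRCh38.p14, 250 bases before to 50 bases after a gene's start) were found for 6 of the 10 genes, with 8 entries in all. EGR3, IER3, KLF10 and MYC had none. CArG boxes are in capitals, and all sequences run 5′ to 3′ on the strand of the gene. The EGR1 entry lies at chr5:138465229-138465528 on the plus strand, the third EGR2 entry at chr10:62816317-62816616 on the minus strand and the first SRF entry at chr6:43171019-43171318 on the plus strand.
EGR1: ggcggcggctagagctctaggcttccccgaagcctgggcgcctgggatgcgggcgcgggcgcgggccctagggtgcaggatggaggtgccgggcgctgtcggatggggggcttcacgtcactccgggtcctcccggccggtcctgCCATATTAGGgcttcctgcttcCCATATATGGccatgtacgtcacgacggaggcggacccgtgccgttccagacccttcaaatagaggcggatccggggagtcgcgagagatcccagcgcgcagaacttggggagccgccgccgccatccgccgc
EGR2: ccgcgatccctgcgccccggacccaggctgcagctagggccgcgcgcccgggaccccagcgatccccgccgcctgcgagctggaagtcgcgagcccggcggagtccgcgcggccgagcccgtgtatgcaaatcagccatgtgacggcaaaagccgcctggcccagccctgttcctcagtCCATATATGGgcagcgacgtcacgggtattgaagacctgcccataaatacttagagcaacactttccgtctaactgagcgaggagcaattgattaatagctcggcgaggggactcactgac
SRF: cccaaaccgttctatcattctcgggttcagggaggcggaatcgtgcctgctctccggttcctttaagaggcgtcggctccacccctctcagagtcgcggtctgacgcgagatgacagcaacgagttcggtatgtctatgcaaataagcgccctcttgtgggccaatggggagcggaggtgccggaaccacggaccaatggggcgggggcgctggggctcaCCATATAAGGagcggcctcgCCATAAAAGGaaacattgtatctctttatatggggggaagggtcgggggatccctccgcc
EGR1 held 2 CArG boxes, which began 105 and 83 bases before the start of the gene. The EGR2 entry shown held 1, which began 71 bases before the gene start that this entry uses, and the other 2 EGR2 entries held none. SRF held 2, which began 30 and 10 bases before its start. None was found in the entries of IER2, IER5, KLF4 and KLF6. The box was present in 1.29% of all 35114 promoters of this length, searched on both strands as the other motifs were. The EGR motif GCGNGGGCG, present in 9.43% of all promoters, was found in EGR1, the second EGR2 entry, KLF4 and KLF6. The E-box CACGTG that MYC binds, present in 7.26%, was found in the second EGR2 entry, KLF4 and KLF6. The NF-kB site, the CRE TGACGTCA and TATAAA, present in 5.91%, 1.85% and 11.5%, were found in none of the 8 entries of the 10 genes. The SRF entry shown, which is not among these 8, held GCGNGGGCG from 49 bases before the gene's start. It also held TATAAA from 14 and an NF-kB site from 34 bases after that start. No match of another motif overlapped a CArG box in the 3 sequences shown. A match of letters describes the window and shows no binding.

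Levels are log2 intensities after normexp background correction and quantile normalization over the 24 arrays, and a difference is the mean of the first named group minus that of the second, ± SE from limma, with 2 arrays per group. A level is compared only with the same gene's level in other groups, since each gene has its own probes. Arrays of 2 compared groups did not overlap for 42.2% to 74.7% of all tested genes in the comparisons within a line. The inhibitor and scramble comparisons with DMSO in a line, and that between the lines' DMSO groups, share DMSO arrays and are not separate observations. The number of genes with a detection p below 0.01 was 10015 on the array with the fewest and 12090 on that with the most, and detection began at a log2 level of 5.00 to 5.45. The median difference between the 2 arrays of a group was largest in Capan1 shIRAK1+4 (0.29), Capan1 shIRAK4 (0.25) and Panc1 shIRAK4 (0.24), against 0.11 in either DMSO group. IRAK1 was lower with shIRAK1 in Panc1 (-2.46 ± 0.30, limma adjusted p = 0.000107) and with shIRAK1+4 in Panc1 (-2.89 ± 0.30, limma adjusted p = 1.59e-05) and Capan1 (-1.59 ± 0.30, limma adjusted p = 0.00557), all against scramble. In Capan1 shIRAK1 its difference did not pass the threshold (-1.18 ± 0.30, limma adjusted p = 0.0552). IRAK4 was detected on no shIRAK4, shIRAK1+4 or scramble array of either line, so its knockdown cannot be read from these arrays. In Panc1, IRAK4 was detected on both arrays at 5.79 and 5.95 with shIRAK1, against 4.77 and 5.03 on scramble (limma adjusted p = 0.00987), and the scramble arrays were also below DMSO, at 6.45 and 5.85 (limma adjusted p = 0.000905). Of 8 rows of epithelial markers, 8 were detected on all Capan1 arrays and 5 on all Panc1 arrays, the exceptions in Panc1 being KRT7, TACSTD1 and CDH1. TACSTD1 is an older symbol of EPCAM, so these 2 rows stand for 1 gene. In Panc1 they differ, since the EPCAM row was detected on all arrays. Of 8 fibroblast markers 6 were detected on no array of either line, while ACTA2 was detected on all Capan1 arrays, and of 5 endothelial markers none was detected on any Panc1 array and 3 on no Capan1 array. Of 7 immune markers, CD68 was detected on all arrays of both lines and LYZ on all Capan1 arrays, while PTPRC and CD3E, which define leukocytes and T cells, were detected on no array of either line.

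EGR1, a zinc finger transcription factor and the best known member of its family, set the scramble arrays of Panc1 apart from every other group of that line. In Panc1, EGR1 read 7.78 and 7.74 on the inhibitor arrays, 7.05 and 6.65 on shIRAK1, 7.77 and 6.83 on shIRAK4, 7.02 and 6.99 on shIRAK1+4, 10.28 and 10.35 on scramble, and 5.95 and 6.32 on DMSO. Scramble lay highest, DMSO lowest, and neither overlapped any other group of the line. The 3 hairpin groups and the inhibitor group lay between them, and each neighbouring pair among these 4 overlapped.

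The scramble minus DMSO difference of EGR1 in Panc1 was 4.18 ± 0.38, or 18.1-fold (limma adjusted p = 3.98e-06), and became 2.46 with a background from all rows, still past the threshold. The cells of these groups differ in virus, drug selection and vehicle together, which cannot be told apart. Only 0.0290% of the 10359 genes tested had a larger absolute difference. EGR1 fell with all 3 hairpin combinations against scramble in Panc1, by -3.46 ± 0.38 with shIRAK1, or 11-fold (limma adjusted p = 5.11e-05). With shIRAK4 the difference was -3.01 ± 0.38 (limma adjusted p = 0.000114) and with shIRAK1+4 it was -3.31 ± 0.38 (limma adjusted p = 4.76e-05). At their smallest over 12 alternatives, these 3 differences became -2.39, -2.30 and -2.37, in the same order. These falls and the scramble minus DMSO rise use the same 2 scramble arrays, on which EGR1 was high, so they are not separate observations of it. All 3 hairpin groups lay above DMSO, at means of 6.85 ± 0.28, 7.30 ± 0.67 and 7.01 ± 0.02, against 6.14 ± 0.26 in DMSO (SD, n = 2 each). In bulk RNA, fewer cells that transcribe a gene and less RNA per cell cannot be told apart.

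The inhibitor raised EGR1 in Panc1 by 1.62 ± 0.38, or 3.08-fold, over the DMSO arrays that the scramble rise also uses (limma adjusted p = 0.0177). The arrays of the 2 groups did not overlap, as for 60.4% of all genes tested there. The call did not hold without any 1 of the 4 arrays (limma adjusted p from 0.0728 to 0.124), under median scaling (0.0856), with no detection filter (0.0502) and with a background taken from all rows (0.611), where the difference was 0.25.

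In Capan1, EGR1 ran the other way: DMSO was its highest group and scramble its lowest. EGR1 read 9.0 and 8.94 on the inhibitor arrays, 8.81 and 8.78 on shIRAK1, 8.0 and 9.46 on shIRAK4, 9.56 and 9.78 on shIRAK1+4, 8.06 and 8.97 on scramble, and 9.97 and 10.05 on DMSO. DMSO overlapped no other group. Scramble, shIRAK4 and shIRAK1 overlapped as neighbours, and both scramble and shIRAK4 had 1 low and 1 high array.

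EGR1 fell in scramble against DMSO in Capan1, by -1.5 ± 0.38 (limma adjusted p = 0.0129), a call lost without either DMSO array (0.0652 and 0.0763), without scramble replicate 1 (0.152) and under median scaling (0.0591). With the inhibitor it fell by -1.04 ± 0.38 against DMSO (limma adjusted p = 0.0433), a call lost without any 1 of the 4 arrays (limma adjusted p from 0.124 to 0.151), with no detection filter (0.111) and under median scaling (0.110). Both falls use the same DMSO arrays, on which EGR1 was highest in the line, so they are not separate observations of it. Against scramble, the differences of EGR1 were 0.29 ± 0.38 with shIRAK1 (limma adjusted p = 0.823), 0.21 ± 0.38 with shIRAK4 (limma adjusted p = 0.765) and 1.15 ± 0.38 with shIRAK1+4 (limma adjusted p = 0.0816), none past the threshold. With shIRAK1+4 the arrays did not overlap those of scramble, as for 44.6% of all genes tested there. The shIRAK1+4 test passed only with a background from all rows (limma adjusted p = 0.0230).

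An interaction term gave how far the effects of Panc1 lay above those of Capan1. For EGR1 it was 5.68 ± 0.53 for scramble minus DMSO (limma adjusted p = 8.37e-06), 2.67 ± 0.53 for inhibitor minus DMSO (limma adjusted p = 0.00374) and -4.46 ± 0.53 for shIRAK1+4 minus scramble (limma adjusted p = 0.000153). All 3 held under each of 16 alternatives, although the inhibitor term became 1.44 with a background from all rows. EGR1 also differed between the vehicle-treated cells of the lines, at 6.14 ± 0.26 in Panc1 DMSO against 10.01 ± 0.05 in Capan1 DMSO (SD, n = 2 each), a difference of -3.88 ± 0.38 (limma adjusted p = 3.63e-07) that became -2.01 with a background from all rows, still past the threshold.

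**Figure D1:**
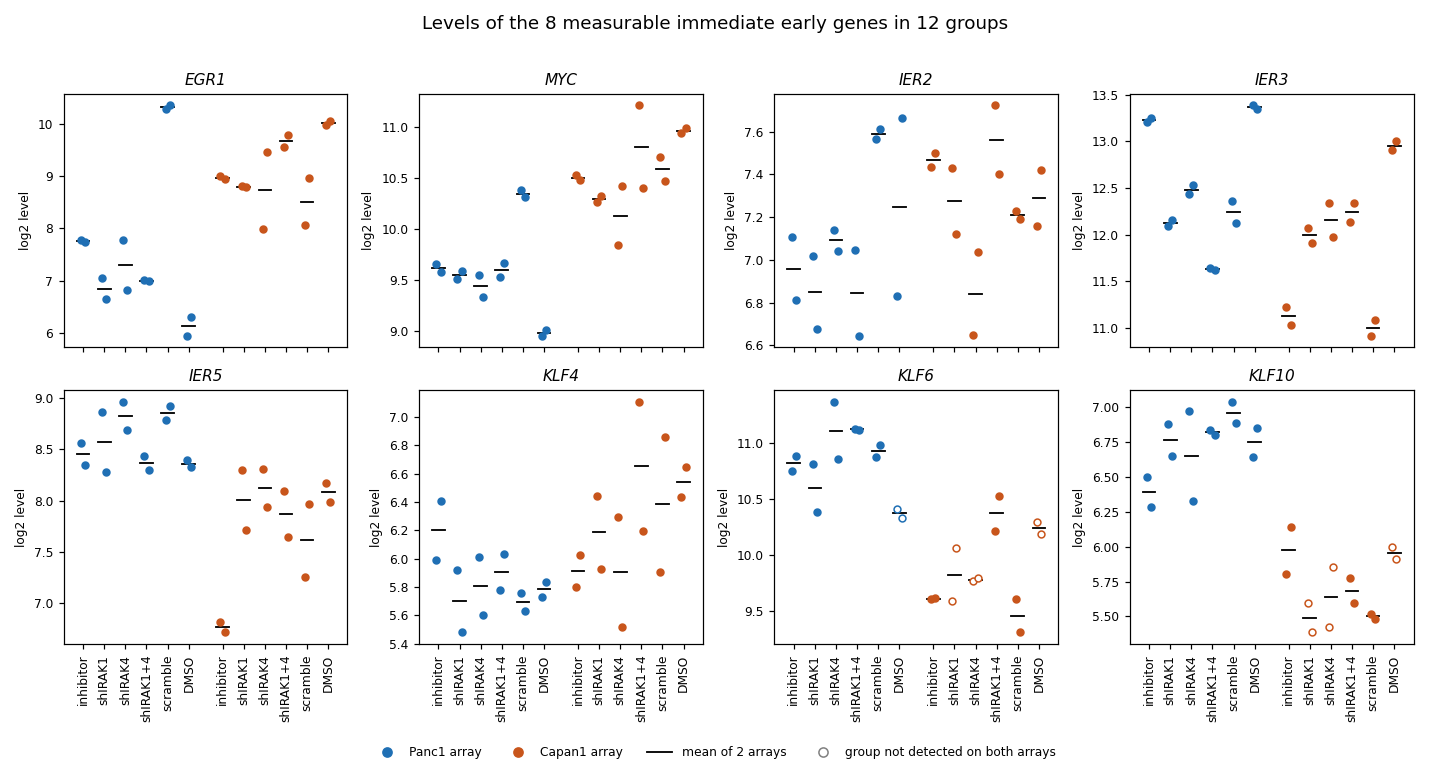
Log2 level (y axes) of the 8 genes that could be measured, by group (x axes). Points are single arrays (blue Panc1, orange Capan1), black bars the mean of the 2 arrays, and open points mark groups in which the gene was not detected on both arrays. Among the Panc1 groups EGR1 and MYC are highest in scramble, IER3 is lowest in Capan1 scramble and inhibitor, and KLF4 arrays of 1 group spread widely in Capan1.

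EGR2 and EGR3, the close relatives of EGR1, could not be followed. EGR2 was detected on 1 of 24 arrays, Panc1 scramble replicate 2, at 5.42, where the other scramble array read 4.64. Its remaining Panc1 arrays ran from 4.40 to 4.88, and Capan1 from 4.47 to 4.93. EGR3 was detected on 0 of 24 arrays, with levels from 4.43 to 4.65. Neither entered any test.

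MYC, the basic helix-loop-helix factor that drives ribosome production and growth, was highest in scramble among the Panc1 groups, below 4 of the 6 Capan1 groups. In Panc1, MYC read 9.65 and 9.57 on the inhibitor arrays, 9.51 and 9.59 on shIRAK1, 9.55 and 9.33 on shIRAK4, 9.53 and 9.67 on shIRAK1+4, 10.38 and 10.31 on scramble, and 8.95 and 9.0 on DMSO. The order was that of EGR1 at its ends: scramble above and DMSO below all others without overlap, with the inhibitor and the 3 hairpin groups overlapping between them.

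The scramble minus DMSO difference of MYC in Panc1 was 1.37 ± 0.20, or 2.58-fold (limma adjusted p = 0.000256). Against the same scramble arrays MYC fell by -0.79 ± 0.20 with shIRAK1 (limma adjusted p = 0.0199), -0.91 ± 0.20 with shIRAK4 (limma adjusted p = 0.00832) and -0.74 ± 0.20 with shIRAK1+4 (limma adjusted p = 0.0219). The shIRAK1 and shIRAK1+4 calls were lost without any 1 of their 4 arrays (limma adjusted p up to 0.107 and 0.124), and the shIRAK4 call without scramble replicate 1 (0.0594) or shIRAK4 replicate 2 (0.0536). The inhibitor difference in Panc1 was 0.64 ± 0.20 (limma adjusted p = 0.0719), short of the threshold, and past it with array weights per group (limma adjusted p = 0.0159). The arrays of these groups did not overlap, as for 60.4% of all genes tested there.

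In Capan1 no comparison of MYC passed the threshold. MYC read 10.52 and 10.48 on the Capan1 inhibitor arrays, 10.26 and 10.33 on shIRAK1, 9.84 and 10.42 on shIRAK4, 11.21 and 10.40 on shIRAK1+4, 10.70 and 10.46 on scramble, and 10.94 and 10.98 on DMSO. The first shIRAK1+4 array was the highest of the line, and the second lay below both scramble and both inhibitor arrays. The limma differences were -0.38 ± 0.20 for scramble minus DMSO (adjusted p = 0.222) and -0.46 ± 0.20 for inhibitor minus DMSO (adjusted p = 0.0908), which passed with array weights per group (adjusted p = 0.0241). Without shIRAK1+4 replicate 2, shIRAK1+4 minus scramble became 0.63 (limma adjusted p = 0.0483), against 0.22 ± 0.20 with both arrays (limma adjusted p = 0.562). Without shIRAK4 replicate 2, shIRAK4 minus scramble became -0.75 (limma adjusted p = 0.0476), against -0.45 ± 0.20 with both (limma adjusted p = 0.174). MYC was lower in Panc1 DMSO than in Capan1 DMSO, by -1.99 ± 0.20 (limma adjusted p = 6.22e-07).

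IER3, which modulates apoptosis and NF-kB and MAP kinase signals, moved in a pattern of its own, with DMSO above scramble in both lines. In Panc1, IER3 read 13.21 and 13.25 on the inhibitor arrays, 12.09 and 12.15 on shIRAK1, 12.43 and 12.53 on shIRAK4, 11.64 and 11.62 on shIRAK1+4, 12.36 and 12.12 on scramble, and 13.39 and 13.35 on DMSO. In Capan1, IER3 read 11.22 and 11.03 on the inhibitor arrays, 12.07 and 11.91 on shIRAK1, 12.34 and 11.98 on shIRAK4, 12.13 and 12.34 on shIRAK1+4, 10.91 and 11.08 on scramble, and 12.91 and 13 on DMSO. The Capan1 inhibitor and scramble arrays overlapped each other and lay below all others of the line, and the 3 hairpin groups overlapped as neighbours below DMSO. In Panc1 shIRAK1+4 was lowest, and only shIRAK1 and scramble overlapped.

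IER3 was lower in scramble than in DMSO by -1.13 ± 0.12 in Panc1 (limma adjusted p = 1.78e-05) and by -1.96 ± 0.12 in Capan1 (limma adjusted p = 6.12e-08). With the inhibitor it fell 3.55-fold in Capan1 (-1.83 ± 0.12, limma adjusted p = 9.78e-08), against a difference of -0.14 ± 0.12 in Panc1 that did not pass the threshold (limma adjusted p = 0.574), and the interaction was 1.69 ± 0.17 (limma adjusted p = 2.76e-05). The scramble and inhibitor falls in Capan1 use the same DMSO arrays, on which IER3 was highest in the line. Against scramble in Capan1, IER3 rose by 1.00 ± 0.12 with shIRAK1 (limma adjusted p = 0.000444), 1.16 ± 0.12 with shIRAK4 (limma adjusted p = 3.58e-05) and 1.24 ± 0.12 with shIRAK1+4 (limma adjusted p = 6.37e-05), all with the scramble arrays on which it was lowest. In Panc1 it fell with shIRAK1+4 (-0.61 ± 0.12, limma adjusted p = 0.00355), which did not hold without scramble replicate 1 (0.0509) and under median scaling (0.151). Its differences with shIRAK1 (-0.12 ± 0.12, limma adjusted p = 0.584) and shIRAK4 (0.24 ± 0.12, limma adjusted p = 0.207) in Panc1 did not pass. Under median scaling the Capan1 shIRAK1 call was lost too (limma adjusted p = 0.0771).

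IER5, which binds protein phosphatase PP2A and acts on heat shock factor HSF1, changed in 1 comparison only, the inhibitor in Capan1. IER5 read 6.81 and 6.71 on the Capan1 inhibitor arrays against 8.18 and 7.99 on DMSO, and no other Capan1 array was below 7.26. The difference was -1.32 ± 0.25, or 2.50-fold (limma adjusted p = 0.000920), and with a background from all rows it became -0.29 (limma adjusted p = 0.0523). In Panc1 its 12 arrays ran from 8.28 to 8.96, and the inhibitor difference there was 0.09 ± 0.25 (limma adjusted p = 0.878), with an interaction of 1.41 ± 0.35 (limma adjusted p = 0.0130). That interaction was lost under median scaling (0.0719), with a background from all rows (0.141, at a difference of 0.33), without Capan1 DMSO replicate 1 (0.0538) and without Panc1 inhibitor replicate 1 (0.05). The scramble minus DMSO differences of IER5 were 0.50 ± 0.25 in Panc1 (limma adjusted p = 0.153) and -0.47 ± 0.25 in Capan1 (limma adjusted p = 0.221).

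IER2, a small nuclear protein that regulates transcription, moved little. In Panc1, IER2 read 7.11 and 6.81 on the inhibitor arrays, 7.02 and 6.68 on shIRAK1, 7.14 and 7.04 on shIRAK4, 7.05 and 6.64 on shIRAK1+4, 7.57 and 7.61 on scramble, and 6.83 and 7.66 on DMSO. The DMSO arrays stood far apart, and the 12 arrays of the line ran from 6.64 to 7.66. IER2 fell with shIRAK1 (-0.74 ± 0.23, limma adjusted p = 0.0494) and shIRAK1+4 (-0.74 ± 0.23, limma adjusted p = 0.0392) against scramble. The first call was lost under 11 of 12 alternatives and the second under 6 of 12, including the loss of either scramble array (limma adjusted p from 0.125 to 0.172 over both). The second was also lost without shIRAK1+4 replicate 2 (0.263), and the first without either shIRAK1 array (0.0620 and 0.240). Scramble minus DMSO of IER2 was 0.34 ± 0.23 in Panc1 (limma adjusted p = 0.285), which became 0.76 without DMSO replicate 2 (limma adjusted p = 0.0330), and -0.08 ± 0.23 in Capan1 (limma adjusted p = 0.851). In Capan1 its arrays ran from 6.65 to 7.72 and no comparison passed.

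KLF6, a zinc finger factor that restrains growth in several epithelia, was the KLF gene with the most changes. In Panc1, KLF6 read 10.75 and 10.89 on the inhibitor arrays, 10.81 and 10.39 on shIRAK1, 11.37 and 10.86 on shIRAK4, 11.13 and 11.12 on shIRAK1+4, 10.88 and 10.98 on scramble, and 10.41 and 10.34 on DMSO. In Capan1, KLF6 read 9.61 and 9.62 on the inhibitor arrays, 9.59 and 10.07 on shIRAK1, 9.77 and 9.80 on shIRAK4, 10.22 and 10.53 on shIRAK1+4, 9.61 and 9.31 on scramble, and 10.30 and 10.19 on DMSO. All neighbours in the Panc1 order overlapped, while in Capan1 shIRAK1+4 and DMSO lay above the other 4 groups. The detection p of the KLF6 row was over 0.01 on 4 arrays although its level was between 9.59 and 10.34 there. Its detection p does not follow its level as that of a 1-probe row does, and is unreliable for it.

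KLF6 was higher in scramble than in DMSO in Panc1 (0.56 ± 0.18, limma adjusted p = 0.0332), a call lost without any 1 of the 4 arrays (limma adjusted p from 0.0848 to 0.145), under median scaling (0.176), with no detection filter (0.0862) and in the authors' normalized table (0.0731). In Capan1 it was lower in scramble than in DMSO (-0.78 ± 0.18, limma adjusted p = 0.00813), lost without DMSO replicate 1 (0.0696), without scramble replicate 2 (0.0925) and under median scaling (0.0937). The interaction was 1.34 ± 0.26 (limma adjusted p = 0.00267) and held under each of 16 alternatives. With the inhibitor KLF6 fell in Capan1 (-0.63 ± 0.18, limma adjusted p = 0.0153), lost without DMSO replicate 1 (0.0918), without either inhibitor array (0.0690 and 0.0609) and under median scaling (0.0866), against 0.45 ± 0.18 in Panc1 (limma adjusted p = 0.159). It rose with shIRAK1+4 against scramble in Capan1 (0.91 ± 0.18, limma adjusted p = 0.00862), lost without scramble replicate 2 (0.0946), without shIRAK1+4 replicate 2 (0.0517) and under median scaling (0.0796).

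KLF4, a zinc finger factor of epithelial differentiation, and KLF10, which is induced early by TGF-beta, passed no test within a line. KLF4 ran from 5.48 to 6.41 in Panc1 and from 5.52 to 7.10 in Capan1, where paired arrays differed most in scramble, with an SD of 0.67. Its scramble minus DMSO difference was -0.09 ± 0.34 in Panc1 (limma adjusted p = 0.877) and -0.16 ± 0.34 in Capan1 (limma adjusted p = 0.802), with 95% intervals from -0.80 to 0.62 and from -0.87 to 0.56 that leave room for changes of either sign. KLF10 ran from 6.28 to 7.04 in Panc1 and from 5.38 to 6.14 in Capan1, without overlap between the lines. Its scramble minus DMSO difference was 0.21 ± 0.19 in Panc1 (limma adjusted p = 0.431) and -0.46 ± 0.19 in Capan1 (limma adjusted p = 0.111), the Capan1 value past the threshold with array weights per group (limma adjusted p = 0.0449). KLF10 was higher in Panc1 DMSO than in Capan1 DMSO by 0.79 ± 0.19 (limma adjusted p = 0.00194), a difference that became 0.07 with a background from all rows, still past the threshold. Without Panc1 shIRAK4 replicate 1, KLF10 was lower with shIRAK4 than with scramble in Panc1 (-0.64, limma adjusted p = 0.0376), against -0.31 ± 0.19 with both arrays (limma adjusted p = 0.291).

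**Figure D2:**
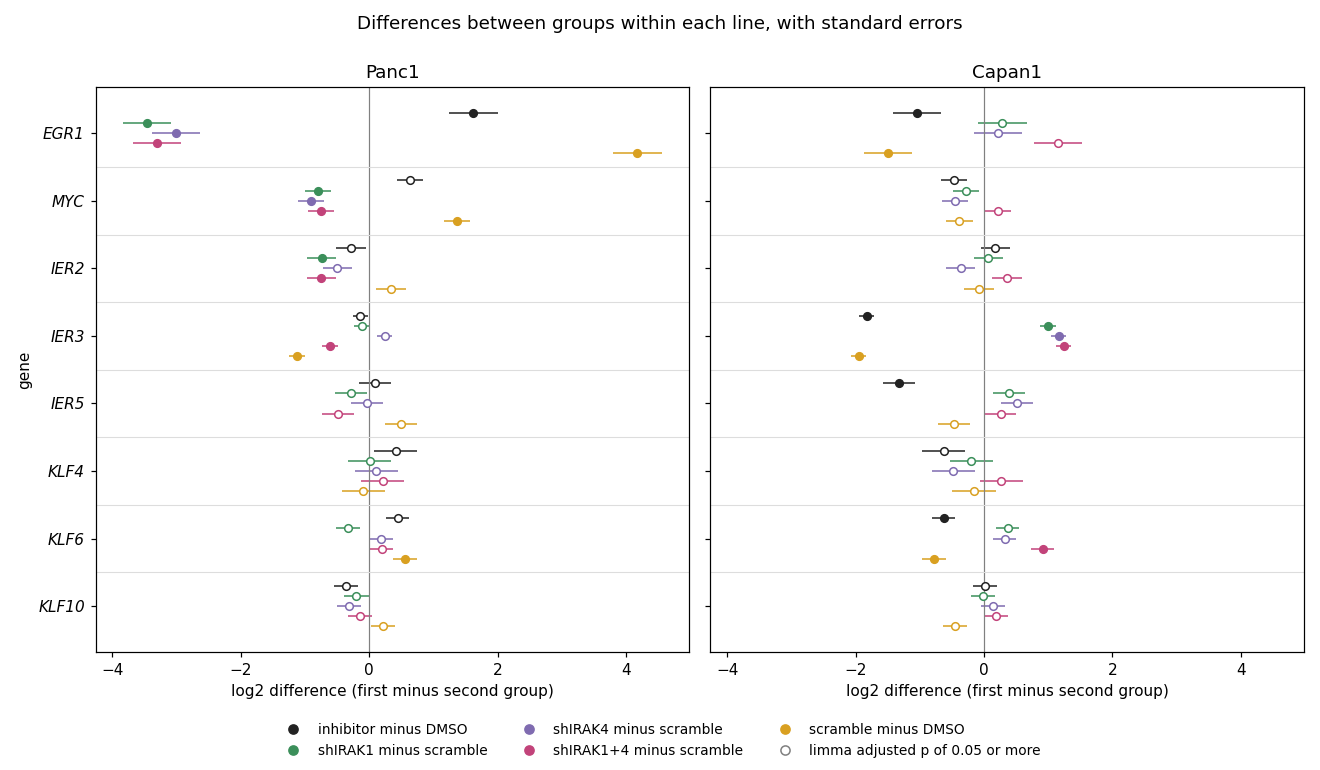
Log2 differences of the 8 genes (rows) within Panc1 (left) and Capan1 (right), with bars of 1 SE from limma. Filled points passed a limma adjusted p of 0.05, and the colour gives the comparison. The Panc1 EGR1 points for the hairpins lie near -3 and the scramble minus DMSO point at 4.18, all from the same scramble arrays, and the Capan1 IER3 points mirror each other about 0 in the same way.

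Counted together, 8 of the 10 genes entered each comparison within a line, and each count is given with the share of all tested genes called, in all and as higher or lower. For scramble minus DMSO in Panc1, 3 rose (EGR1, KLF6 and MYC) and 1 fell (IER3), where 27.1% of all tested genes were called, 12.3% higher and 14.9% lower. For scramble minus DMSO in Capan1, 0 rose and 3 fell (EGR1, IER3 and KLF6), where 17.1% were called, 8.78% higher and 8.34% lower. The median difference of the 8 was 0.42 in Panc1, against -0.01 over all tested genes, and -0.46 in Capan1, against 0.01.

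With the inhibitor in Panc1, 1 rose (EGR1) and 0 fell, where 6.86% of all tested genes were called, 3.86% higher and 3% lower. With the inhibitor in Capan1, 0 rose and 4 fell (EGR1, IER3, IER5 and KLF6), where 34.5% were called, 17.3% higher and 17.2% lower. The share of the 8 that was lower in Capan1 was thus 4 of 8, and the median difference of the 8 was -0.63, against 0.00427 over all tested genes.

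With shIRAK1 in Panc1, 0 rose and 3 fell against scramble (EGR1, IER2 and MYC), where 11.3% were called, 6.22% higher and 5.12% lower. With shIRAK4 in Panc1, 0 rose and 2 fell (EGR1 and MYC), where 14.3% were called, 7.84% higher and 6.43% lower. With shIRAK1+4 in Panc1, 0 rose and 4 fell (EGR1, IER2, IER3 and MYC), where 15.6% were called, 8.89% higher and 6.72% lower. With shIRAK1 in Capan1, 1 rose (IER3) and 0 fell, where 1.94% were called, 1.06% higher and 0.879% lower. With shIRAK4 in Capan1, 1 rose (IER3) and 0 fell, where 9.33% were called, 4.8% higher and 4.53% lower. With shIRAK1+4 in Capan1, 2 rose (IER3 and KLF6) and 0 fell, where 6.31% were called, 2.69% higher and 3.62% lower.

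Between the lines' DMSO groups, where 59.1% of all genes were called, 31% higher and 28.1% lower in Panc1, 2 of 7 tested genes were higher in Panc1 (IER3 and KLF10) and 2 were lower (EGR1 and MYC). IER3 differed there by 0.41 ± 0.12 (limma adjusted p = 0.00849), which did not hold without Capan1 DMSO replicate 1 (0.0603) or under median scaling (0.147). KLF4 differed by -0.76 ± 0.34 (limma adjusted p = 0.0641), and past the threshold with array weights per group (limma adjusted p = 0.0267). The interaction term was higher in Panc1 for 5 of 8 genes with the inhibitor, where 17% of all genes were called, 8.42% higher and 8.53% lower. It was higher for 4 of 8 in scramble minus DMSO, where 16.5% were called, 7.25% higher and 9.27% lower. It was lower for 4 of 8 in shIRAK1+4 minus scramble, where 11.7% were called, 6.93% higher and 4.73% lower.

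A list of other immediate early genes was counted in the same comparisons. The counts of this list and of those that follow can be read against the shares of all tested genes given above. It held 45 genes, 44 of them with a row, and like the other lists it was chosen with earlier results of these data known. In Panc1 scramble against DMSO, 13 of 35 tested rose and 1 fell, with a median difference of 0.44. Against scramble in Panc1, 11 of 35 fell and 1 rose with shIRAK1, 11 of 36 fell and 1 rose with shIRAK4, and 13 of 36 fell and 0 rose with shIRAK1+4. FOSB, an AP-1 subunit, rose in Panc1 scramble over DMSO, where it was detected on 1 of 2 arrays, by 2.53 ± 0.25 (limma adjusted p = 9.03e-06) and fell with shIRAK1+4 by -2.19 ± 0.25 (limma adjusted p = 5.11e-05). HBEGF, a ligand of the EGF receptor, read 6.67 and 6.88 on Panc1 shIRAK1+4 and 9.19 and 9.28 on scramble, a fall of -2.46 ± 0.45 (limma adjusted p = 0.00182). CTGF, a matricellular protein, was 2.55 ± 0.45 higher in Panc1 scramble than in DMSO (limma adjusted p = 0.000972).

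With the inhibitor in Panc1, 6 of 33 genes of this list rose and 2 fell. They included PPP1R15A, a regulatory subunit of protein phosphatase 1 (1.5 ± 0.26, limma adjusted p = 0.00347), and the MAP kinase phosphatases DUSP5 (1.29 ± 0.23, limma adjusted p = 0.00436) and DUSP1 (0.95 ± 0.12, limma adjusted p = 0.000446). FOSB rose by 0.95 ± 0.25 (limma adjusted p = 0.0347), over a DMSO group in which it was detected on 1 of 2 arrays. In Capan1 the inhibitor lowered 20 of 36 and raised 2, where 17.2% of all tested genes were lower and 17.3% higher. The median difference of the list there was -0.68. CYR61, a matricellular protein, was not detected on either Capan1 inhibitor array and lay at 8.96 and 8.78 on DMSO, at least 12.1-fold lower (limma adjusted p = 3.45e-06), a bound set by the detection limit. JUN, an AP-1 subunit, read 5.86 and 6.0 on the Capan1 inhibitor arrays and 8.85 and 8.99 on DMSO, a fall of -2.99 ± 0.27 (limma adjusted p = 1.28e-06). F3, the tissue factor, fell by -3.00 ± 0.33 (limma adjusted p = 1.09e-05).

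In Capan1 scramble against DMSO, 8 of 37 of these genes fell and 1 rose. JUN fell by -1.66 ± 0.27 (limma adjusted p = 0.000645), and ID1, an inhibitor of helix-loop-helix factors, was the gene that rose (1.07 ± 0.33, limma adjusted p = 0.0346). Against scramble in Capan1, 0 rose and 1 fell of 36 with shIRAK1, 3 rose and 3 fell of 36 with shIRAK4, and 5 rose and 0 fell of 37 with shIRAK1+4. With shIRAK1+4 the risers included HBEGF (1.60 ± 0.45, limma adjusted p = 0.0447), FOSB (1.16 ± 0.25, limma adjusted p = 0.0143) and JUN (1.13 ± 0.27, limma adjusted p = 0.0217). FOSB was detected on 1 of the 2 Capan1 scramble arrays, so the size of its difference is uncertain. The interaction for scramble minus DMSO passed for 15 of 40, all higher in Panc1.

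Few relatives of the 10 genes could be tested. Of 18 other EGR, IER and KLF family genes with a row, 6 to 9 entered a comparison within a line and at most 2 passed in any. KLF2, a further zinc finger factor of the family, rose in Panc1 scramble over DMSO (1.58 ± 0.23, limma adjusted p = 0.000198) and fell with shIRAK4 against scramble (-0.78 ± 0.23, limma adjusted p = 0.0327), and rose with shIRAK1+4 in Capan1 (0.89 ± 0.23, limma adjusted p = 0.0310). WT1, a zinc finger factor that binds motifs like those of EGR1, moved the other way in Panc1, lower in scramble than in DMSO (-0.53 ± 0.11, limma adjusted p = 0.00319) and higher with shIRAK4 than with scramble (0.90 ± 0.11, limma adjusted p = 0.000114). KLF5 was higher with the inhibitor in Capan1 (0.67 ± 0.23, limma adjusted p = 0.0351).

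Among 18 regulators of immediate early transcription, 2 of 14 rose and 3 fell in Panc1 scramble against DMSO, where 12.3% of all tested genes were higher and 14.9% lower. SRF, which binds the CArG box, read 9.83 and 9.79 on Panc1 shIRAK1+4, 10.95 and 11.01 on scramble and 9.83 and 9.74 on DMSO. It was 1.19 ± 0.13 higher in scramble than in DMSO (limma adjusted p = 2.56e-05), and lower than scramble with shIRAK1 (-0.91 ± 0.13, limma adjusted p = 0.000494) and shIRAK1+4 (-1.17 ± 0.13, limma adjusted p = 5.11e-05). With shIRAK4 it read 10.69 and 10.61, a difference of -0.33 ± 0.13 that did not pass (limma adjusted p = 0.113). In Capan1, SRF was also highest in scramble, at 10.13 and 9.99 against 9.69 and 9.60 on DMSO (0.41 ± 0.13, limma adjusted p = 0.0475), the group in which EGR1 was lowest. CREB1, which binds the CRE, rose in Panc1 scramble over DMSO (1.01 ± 0.17, limma adjusted p = 0.000737), in a row whose detection p does not follow its level. The SRF coactivators MKL1 (-0.84 ± 0.18, limma adjusted p = 0.00331) and MKL2 (-0.98 ± 0.23, limma adjusted p = 0.00543) were lower in scramble, where neither was detected on both arrays, so the size of these differences is uncertain.

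NAB2 and NAB1, corepressors that bind EGR1, changed mainly in Capan1. NAB2 read 5.39 and 5.47 on the Capan1 inhibitor arrays, 5.89 and 5.35 on shIRAK1, 5.85 and 5.54 on shIRAK4, 6.47 and 6.31 on shIRAK1+4, 5.12 and 5.29 on scramble, and 6.43 and 6.61 on DMSO. The shIRAK1+4 and DMSO arrays lay above all others, the inhibitor and shIRAK1 arrays overlapped, and scramble was lowest. NAB2 was detected on 1 of the 2 scramble arrays. It fell with the inhibitor (-1.09 ± 0.19, limma adjusted p = 0.000449) and in scramble against DMSO (-1.31 ± 0.19, limma adjusted p = 0.000216), and rose with shIRAK1+4 over scramble (1.18 ± 0.19, limma adjusted p = 0.00206). NAB1 fell with the inhibitor (-0.88 ± 0.23, limma adjusted p = 0.00913) and in scramble against DMSO (-1.09 ± 0.23, limma adjusted p = 0.00506). In Panc1, NAB1 (-1.02 ± 0.23, limma adjusted p = 0.00820) and NAB2 (-0.73 ± 0.19, limma adjusted p = 0.0152) fell with shIRAK1+4 against scramble.

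Genes of the MYC network and MYC targets were counted in the comparisons in which MYC passed, and the targets also with the Capan1 inhibitor. These counts can be read against the shares of all tested genes given above. Of 15 genes of the network with a row, 0 of 6 passed for scramble minus DMSO in Panc1 and 0 of 5 for shIRAK1 minus scramble. With shIRAK4 1 of 6 rose, MXD1, which pairs with MAX as MYC does (1.24 ± 0.30, limma adjusted p = 0.0120). With shIRAK1+4 1 of 6 rose, MLXIPL, a glucose-responsive factor (0.52 ± 0.13, limma adjusted p = 0.0120). Neither gene was detected on every Panc1 scramble array, so these sizes are uncertain. Between the DMSO groups, 0 of 8 were higher and 4 lower in Panc1. The inhibitor interaction passed for 0 of 10 genes of the network. The scramble interaction was lower for 2 of 10 and the shIRAK1+4 interaction higher for 2 of 10. Of 29 listed MYC targets with a row, 1 of 25 rose in Panc1 scramble over DMSO, NOLC1, a nucleolar chaperone (0.70 ± 0.21, limma adjusted p = 0.0212). With shIRAK4 in Panc1 3 of 26 targets fell (RRP12, NOLC1 and PPAN), where 6.43% of all tested genes were lower, and with shIRAK1 and shIRAK1+4 0 of 25 passed. Between the DMSO groups, 6 of 25 targets were higher and 1 lower in Panc1, and the inhibitor interaction was higher for 5 of 26. The scramble interaction was higher for 2 of 25 targets, and the shIRAK1+4 interaction was lower for 1 of 25. In Capan1, where MYC itself did not pass, the inhibitor lowered 10 of 25 targets and raised 1, where 17.2% of all tested genes were lower, with a median of -0.47. ODC1, the rate-limiting enzyme of polyamine synthesis, read 10.15 and 10.06 on the inhibitor arrays and 11.90 and 12.09 on DMSO, a fall of -1.89 ± 0.30 (limma adjusted p = 0.000218). NOLC1 fell by -1.53 ± 0.21 (limma adjusted p = 6.88e-05), and SHMT2, a mitochondrial serine hydroxymethyltransferase, was the gene that rose (0.96 ± 0.19, limma adjusted p = 0.00122). MXD3, a further partner of MAX, rose with the inhibitor (1.11 ± 0.27, limma adjusted p = 0.00487) and in scramble over DMSO (0.99 ± 0.27, limma adjusted p = 0.0186) in Capan1, where it was not detected on both DMSO arrays.

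The likeness of patterns was measured by Pearson's r over the 12 group means after each line's mean was subtracted, among 10077 genes detected on both arrays of at least 6 groups. These are descriptions over points that share arrays. EGR1 and MYC were close to each other (r = 0.89), while EGR1 and IER3 were not (r = 0.08), nor were MYC and IER3 (r = -0.11). The nearest genes to EGR1 were FOSB (r = 0.94), WDR74 (r = 0.91) and ZNF213 (r = 0.90), and those to MYC were WDR74 (r = 0.96), BMP6 (r = 0.91) and C1ORF172 (r = 0.90). WDR74, a protein of ribosome assembly, read 9.28 on both Panc1 scramble arrays and 8.44 and 8.51 on DMSO, 0.80 ± 0.18 higher in scramble (limma adjusted p = 0.00393). IER3 was nearest to TMEM214 (r = 0.91), FAM134C (r = 0.91) and FLJ20021 (r = 0.90), IER5 to SC4MOL (r = 0.92), SAV1 (r = 0.89) and FAM43A (r = 0.89), and KLF6 to PPAPDC2 (r = 0.94), ZSCAN21 (r = 0.93) and TRMT1 (r = 0.89). The nearest gene reached an r of 0.87 for IER2 (LOC645332), 0.90 for KLF4 (MAPKAPK5) and 0.90 for KLF10 (LOC647195).

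**Figure D3:**
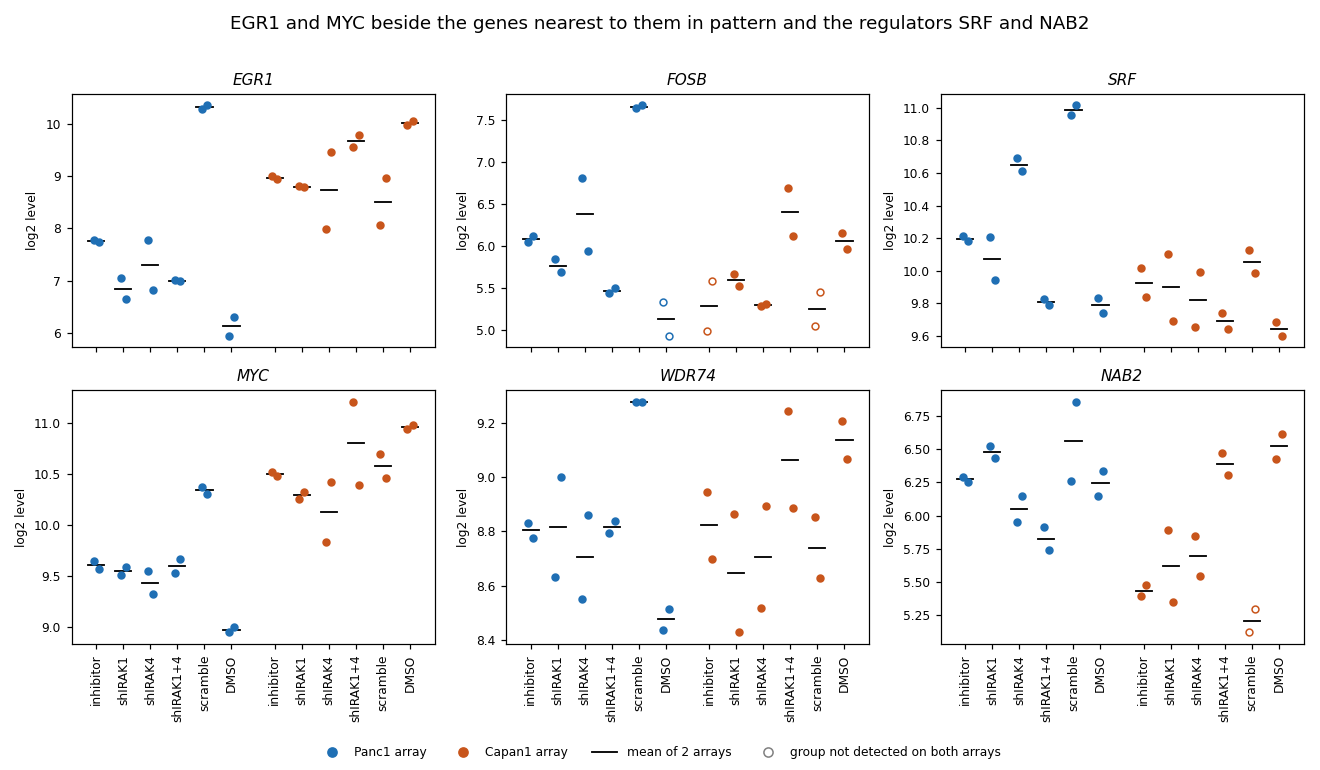
Log2 level (y axes) by group (x axes) of EGR1 and MYC, of FOSB and WDR74, the genes nearest to them in pattern, and of the regulators SRF and NAB2. Points are single arrays (blue Panc1, orange Capan1), bars the mean of 2 arrays, and open points groups not detected on both arrays. Among the Panc1 groups EGR1, FOSB, SRF, MYC and WDR74 are each highest in scramble, and NAB2 is lowest in Capan1 scramble and inhibitor.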

How the data were processed

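Expression was measured on 24 Illumina bead arrays, grouped by the labels. The authors deposited gene-level signals on a log2 scale in a table whose file header calls them non-normalized, and the submitters' processing notes name GenomeStudio 2011. The authors also deposited a detection p-value per gene and array, whose steps imply 770 negative controls. Their second table, of normalized log2 values, served as an alternative. How probes were joined per gene is not given in the sources used here.

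The values were made linear again, corrected with normexp (offset 16), quantile-normalized and logged, in limma 3.58.1 under R 4.3.3. The background (mean 25.3, SD 6.70 to 13.8) came from the 26514 rows whose detection p behaves as that of 1 probe. Genes were tested where both arrays of either compared group had a detection p below 0.01. A single limma model of 12 group means (12 residual and 3.22 prior degrees of freedom) gave 14 comparisons, with Benjamini-Hochberg adjustment over all tested genes and a threshold of 0.05. The small number of arrays limits the precision. The limma comparison was tested on simulated log2 values. Background correction and normalization were not part of that simulation.

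The 10 genes, the lists and the tests were chosen with earlier results of these data known. The 10 are named throughout. Of each list, up to 4 genes per comparison could be named, those with the largest absolute differences past the threshold, and with them the 3 genes most like each of the 10, IRAK1 and IRAK4. The SRF value with shIRAK4 was added after it was seen. One gene that the rule allows is not reported here. Alternatives, run for the 10 genes and for counts over all genes, were median scaling, the authors' table, a background from all rows, no detection filter, a replicate block, array weights per group and each array left out. A robust background and a prior spread that follows the level were added after seeing the data.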

Additional observations from a re-analysis of the deposited data

Results flagged for a closer look

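The effects below differed between the lines by the interaction term of limma (Panc1 minus Capan1, ± SE, over all 8 arrays of the 4 groups concerned), which is what marked them for a closer look. For inhibitor minus DMSO the term was 2.67 ± 0.53 for EGR1 (limma adjusted p = 0.00374), 1.69 ± 0.17 for IER3 (2.76e-05), 1.41 ± 0.35 for IER5 (0.0130), 1.07 ± 0.26 for KLF6 (0.0107) and 1.10 ± 0.29 for MYC (0.0171). EGR1 rose with the inhibitor in Panc1 and fell in Capan1, IER3, IER5 and KLF6 fell in Capan1 and did not pass in Panc1, and MYC passed in neither line. The KLF6 term was lost under median scaling (0.97, limma adjusted p = 0.103). The MYC term was lost without Panc1 inhibitor replicate 1 (0.0542), Panc1 DMSO replicate 1 (0.0514), Capan1 inhibitor replicate 2 (0.0505) or Capan1 DMSO replicate 2 (0.0537).

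For scramble minus DMSO the term was 5.68 ± 0.53 for EGR1 (limma adjusted p = 8.37e-06), 0.83 ± 0.17 for IER3 (0.00464), 1.34 ± 0.26 for KLF6 (0.00267) and 1.75 ± 0.29 for MYC (0.000804). EGR1 and KLF6 lay higher in scramble in Panc1 and lower in Capan1, and IER3 fell in both lines. These terms use the same DMSO arrays as the inhibitor terms. The IER3 term was lost under median scaling (0.60, limma adjusted p = 0.227).

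For shIRAK1+4 minus scramble the term was -4.46 ± 0.53 for EGR1 (limma adjusted p = 0.000153), -1.10 ± 0.32 for IER2 (0.0407), -1.85 ± 0.17 for IER3 (1.86e-05) and -0.97 ± 0.29 for MYC (0.0411). These use the same scramble arrays as the terms before them. The IER2 term was lost without any 1 of 6 of the 8 arrays and the MYC term without any 1 of 7 (limma adjusted p up to 0.148 and 0.128).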

How the results depend on the processing

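Of 111 tests of the 10 genes, 42 passed, and 20 of these passed under every alternative run for them. Another 22 were lost under 1 or more, and 12 other tests passed under 1 or more. No call changed sign. Under median scaling the number of the 10 genes called became 0 for the Panc1 inhibitor, 1 for Panc1 shIRAK1, 2 for Panc1 shIRAK1+4, 2 for the Capan1 inhibitor, 1 for Capan1 scramble minus DMSO, 0 for Capan1 shIRAK1, 1 for Capan1 shIRAK1+4, and 3, 3 and 2 for the interactions of the inhibitor, scramble and shIRAK1+4. In the authors' normalized table, and with no detection filter, it became 1 for Panc1 shIRAK1, 2 for Panc1 shIRAK1+4 and 2 for the shIRAK1+4 interaction. For the Panc1 inhibitor it became 0 with no detection filter, 0 with a background from all rows and 2 with array weights. KLF6 dropped from Panc1 scramble minus DMSO under median scaling (limma adjusted p = 0.176), in the authors' table (0.0731) and with no filter (0.0862). Median scaling also dropped IER3 from the DMSO groups of the lines (0.147). With no filter EGR1 dropped from the Capan1 inhibitor (0.111). Not every count that moved is listed. When 1 array was left out, the one left was taken to vary as the remaining groups do, and the counts were 0 in all fits of the Panc1 inhibitor, 3 to 4 for Panc1 scramble minus DMSO, 1 to 2 for Panc1 shIRAK1, 1 to 3 for Panc1 shIRAK4, 2 to 3 for Panc1 shIRAK1+4, 2 to 3 for the Capan1 inhibitor, 1 to 2 for Capan1 scramble minus DMSO, 1 in all fits of Capan1 shIRAK1, 1 to 2 for Capan1 shIRAK4, 1 to 2 for Capan1 shIRAK1+4, 3 to 4 for the DMSO groups of the lines, and 3 to 5, 4 to 5 and 2 to 4 for the interactions of the inhibitor, scramble and shIRAK1+4.

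Replicate numbers were not used to pair the samples in the main model. Same-numbered deviations correlated at -0.01 to 0.22, over 0.1 in 3 of 10 comparisons, so a weak pairing is not excluded. With a replicate block the count of the 10 genes became 2 for Panc1 shIRAK1, from which IER2 dropped (limma adjusted p = 0.0622). The other 13 counts of the 10 genes were as before, for example 4 for Panc1 scramble minus DMSO. Over all genes, more were called with the block in every comparison, for example 926 in place of 718 for the Panc1 inhibitor and 1708 in place of 1402 for the shIRAK1+4 interaction.

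Median scaling moved the median of all tested genes to -0.19 for Panc1 scramble minus DMSO, to 0.22, 0.16 and 0.22 for Panc1 shIRAK1, shIRAK4 and shIRAK1+4, to 0.11 for Capan1 scramble minus DMSO, and to -0.11, -0.27 and 0.27 for the interactions. Relative to that median, EGR1 differed by 4.27 for Panc1 scramble minus DMSO and by -3.56, -3.08 and -3.40 for the 3 hairpin groups, and MYC by 1.40, -0.82, -0.98 and -0.82.

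Counts over all genes moved with the processing. Genes called numbered 718 for the Panc1 inhibitor, but 184 under median scaling, 194 in the authors' table, 409 without the filter and 1405 with array weights. The authors' table gave 1839 in place of 2810 for Panc1 scramble minus DMSO, 500 for 1145 with Panc1 shIRAK1, 659 for 1456 with shIRAK4 and 864 for 1619 with shIRAK1+4. In Capan1 it gave 1055 for 1866 in scramble minus DMSO, 67 for 207 with shIRAK1, 402 for 1024 with shIRAK4 and 180 for 673 with shIRAK1+4. For the interactions it gave 1076 for 2063, 1098 for 2006 and 569 for 1402. Median scaling gave 2366 for 3755 with the Capan1 inhibitor, 1085 for 1866 in Capan1 scramble minus DMSO, 744 for 1456 with Panc1 shIRAK4, 92, 433 and 242 for the 3 Capan1 hairpin groups and 941 for the inhibitor interaction. No detection filter gave 114, 593 and 342 for the 3 Capan1 hairpin groups and 877 for the shIRAK1+4 interaction, and array weights gave 3237 for the inhibitor interaction. The split also shifted: Panc1 scramble minus DMSO had 1270 higher and 1540 lower, but 348 and 1629 under median scaling. Panc1 hairpin groups had 628 and 517, 800 and 656, and 922 and 697, but 679 and 128, 606 and 138, and 1124 and 195. Capan1 scramble minus DMSO had 957 and 909, but 677 and 408, shIRAK4 527 and 497, but 299 and 134 (268 and 134 in the authors' table), and shIRAK1+4 287 and 386, but 65 and 177. The scramble and shIRAK1+4 interactions had 880 and 1126, and 833 and 569, but 276 and 1179, and 844 and 145. The Panc1 inhibitor had 404 and 314, but 133 and 61 in the authors' table. The cause was not tested. Signal over background limits EGR2, EGR3, IRAK4, KLF4 and, in Capan1, KLF10, which lay at or near the detection limit on some or all arrays. In Panc1 KLF10 ran higher, from 6.28 to 7.04. The detection p of the KLF10 row, like that of KLF6, does not follow its level. EGR1 in Panc1 DMSO was low too, at 5.95 and 6.32 where detection began at 5.23 and 5.29. With a background from all rows its rises over that group became 2.46 for scramble and 0.25 for the inhibitor. Under that background IER5 with the Capan1 inhibitor became -0.29, and IER2 with Panc1 shIRAK1 became -0.13.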
